A study of Mus musculus with 20 samples.

Results

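The genes described here encode the mouse ORMDL proteins (Ormdl1, Ormdl2 and Ormdl3) and the subunits Sptlc1, Sptlc2 and Sptssa of serine palmitoyltransferase. They were followed through RNA pull-downs with iron regulatory protein 1 (IRP1). Every probe set whose annotation names one of these 6 genes was taken, which gave 6 of the 19324 genes named on the array and 11 of its 45037 mouse probe sets. Ormdl1, Ormdl2, Ormdl3 and Sptssa had 1 probe set each, Sptlc1 had 4 and Sptlc2 had 3. The genes were chosen by the measured enrichment of Ormdl1 RNA by IRP1 in these same arrays, with its relatives added by name. All differences between IRP1 and control reactions in these 11 probe sets are therefore descriptions. Where it is said which of them passed a threshold, nothing is read from it. Tests read as results address other questions. They ask whether the change differed between tissues, how the levels in the control reactions differed between tissues, and how other sphingolipid genes changed. For Ormdl1 the tests of change and control level use the arrays in which its enrichment was seen, so they are not independent of the choice. The sphingolipid genes were also listed with earlier results of these data known.

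Serine palmitoyltransferase sits in the membrane of the endoplasmic reticulum and joins serine to palmitoyl-CoA, the first and committed step of sphingolipid synthesis. Sptlc1 and Sptlc2 form the core of the enzyme, with Sptlc2 carrying the catalytic residues, and Sptssa is a small subunit that raises its activity. ORMDL proteins bind the enzyme and restrain it when ceramide is plentiful. IRP1 is a cytosolic protein that binds iron-responsive elements, which are RNA hairpins with the loop letters CAGUGN, when iron is scarce. Such an element near the start of an mRNA blocks its translation, as in ferritin and ferroportin, and elements in the 3′ untranslated region of the transferrin receptor mRNA stabilise it.

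Each array measured RNA brought down from the total RNA of C57BL6/J mice of both sexes. For an IRP1 reaction, 50 µg of a tissue's pooled total RNA was mixed with purified His-tagged IRP1, produced in E. coli, and with a rabbit polyclonal antibody to IRP1. The control reactions held the same RNA and antibody without the recombinant protein. Each reaction was run in 2 replicates for 5 tissues, giving 10 groups and 20 arrays, and about 120 ng of recovered RNA was amplified and hybridised for each. Mice kept from weaning for 21 days on food with less than 10 mg/kg iron gave the duodenum, liver and spleen RNA, whereas animals 8 to 10 weeks old on an iron-normal diet gave the bone marrow and brain RNA. Diet and age therefore go with tissue and cannot be told apart from it. RNA was pooled from 4 to 6 mice per tissue, so the spread between replicates is that of reactions and arrays and not of animals, and p-values measure that spread only. The binding took place in purified RNA, with added protein and without the proteins of the tissue.

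Array medians were close, between 5.497 and 5.62 log2 signal. The hybridisation controls of 3 arrays were low, at a log2 difference to the median array of -1.06 in spleen IRP1 replicate 2, -1.26 in spleen control replicate 2 and -0.74 in bone marrow control replicate 1, whereas the other 17 arrays lay between -0.29 and 0.28. Markers of each tissue were highest in that tissue. Their mean log2 signal was 13.72 for enterocytes in duodenum, 13.91 for hepatocytes in liver, 9.52 for B and T cells in spleen, 12.82 for neutrophil precursors in bone marrow and 9.65 for neurons and glia in brain. Markers of pancreatic acinar cells, of which 3 of 5 were measured, were also high in duodenum at 13.86 (range over its 4 arrays 13.21 to 14.47) and in spleen at 10.14 (9.31 to 10.99), against 6.20 in liver, 5.34 in bone marrow and 5.18 in brain.

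Because an iron-responsive element near the start of an mRNA carries the DNA letters CAGTG in its loop, the first 50 transcribed bases of the 6 genes were searched for these letters on the transcribed strand (RefSeq sequences, build GRCm38.p6). All 6 genes had an entry. Sptlc1 was the only one of the 6 with a match, and it had 2, on the minus strand of chromosome 13, starting at bases 20 and 31 of the transcript. With 10 bases on each side of the letters, the stretches printed lie at chr13:53377328-53377352 and chr13:53377317-53377341. They are shown, with the loop letters in capitals, because no other gene of the group holds these letters there. The stretch for base 20 holds the letters atg ahead of both matches. Whether the matches lie in coding sequence, after the start codon, was not tested.
Sptlc1, base 20: accatggcgaCAGTGgcggagcagt
Sptlc1, base 31: agtggcggagCAGTGggtgctggtg
The same 5 letters occurred in 7.202% of the 32851 RefSeq windows of this length. The longer form CNNNNNCAGTGN, which adds the bulged C before the upper stem and overlaps the short form, occurred in 1.549% of them and in none of the 6 genes. A match is a run of letters and not a binding site, and the windows leave out the rest of each mRNA, including the 3′ untranslated region.

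Ormdl1 RNA was higher in the IRP1 reactions than in the control reactions of every tissue. The gene is measured by 1 probe set, 1451219_at, which is annotated to Ormdl1 alone, and no other RefSeq gene overlaps it. In duodenum its log2 signal was 10.66 and 10.43 in the IRP1 reactions, against 8.95 and 9.09 in the control reactions. In liver it was 10.14 and 10.67 with IRP1, against 9.20 and 8.44 in the controls. The arrays of both tissues separated without overlap, with IRP1 means of 10.55 ± 0.16 in duodenum and 10.40 ± 0.38 in liver, against control means of 9.02 ± 0.10 in duodenum and 8.82 ± 0.53 in liver (SD, n = 2 each). In spleen the signal was 9.92 and 11.95 with IRP1, against 9.19 and 9.61 in the controls. Bone marrow gave 11.36 and 11.83 with IRP1, against 8.95 and 9.43 in the controls. The spleen IRP1 arrays lay far apart, the lower of them just above the higher control, whereas the bone marrow pairs were clearly separate. In brain the signal was 8.96 and 10.77 with IRP1, against 7.54 and 7.03 in the controls. The brain IRP1 arrays were also far apart, and both still lay above both controls.

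**Figure D1:**
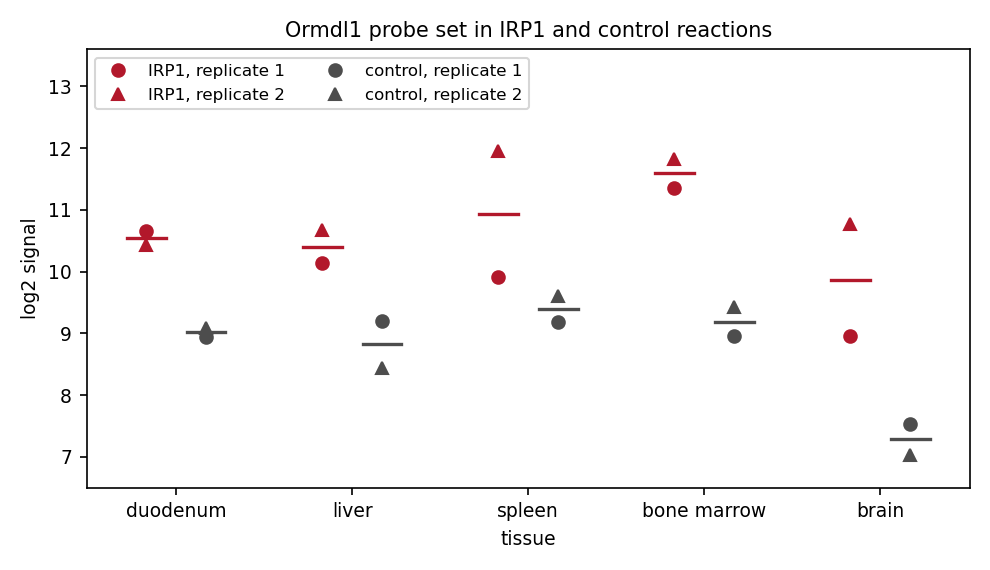
Log2 signal of the Ormdl1 probe set (vertical axis) in the 2 IRP1 reactions (red) and the 2 control reactions (grey) of each tissue (horizontal axis); points are arrays, bars are group means. Both IRP1 arrays lie above both control arrays in all 5 tissues, and the IRP1 arrays of spleen (9.92 and 11.95) and brain (8.96 and 10.77) lie far apart.

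The difference between IRP1 and control means was log2 1.53 in duodenum (2.89-fold), 1.58 in liver (2.99-fold) and 1.54 in spleen (2.90-fold). It was 2.40 in bone marrow (5.29-fold) and 2.58 in brain (5.99-fold), each with an SE of 0.55 from the fit. All 10 differences between IRP1 and control arrays of the same number were positive, and they ran between 0.73 and 3.74. Both IRP1 arrays exceeded both controls in all 5 tissues in 0.409% of all probe sets, and since Ormdl1 was chosen for its enrichment nothing is read from that share. The mean change over the tissues was 1.93 (SE 0.25). Its size moved to 1.72 without spleen IRP1 replicate 2 and to 2.13 without spleen IRP1 replicate 1. It was also 1.72 without the 3 arrays of low hybridisation controls, which include the higher spleen IRP1 array.

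The order of the tissues depended in part on the scaling. Under quantile normalisation the change was 1.39 in duodenum, 1.98 in liver, 1.82 in spleen, 2.06 in bone marrow and 2.89 in brain, so bone marrow stood close to liver and spleen. The test of any difference among the 5 tissues in the change with IRP1 (limma's moderated F test on the interaction, Benjamini-Hochberg adjusted over all probe sets) gave an adjusted p of 0.944 for Ormdl1. That test called 0.0111% of all probe sets, 5 in number, and 0 of the 11 considered here, with 0 also at an unadjusted p under 0.05. Ormdl1 varied more between replicates than most genes. Its SD within groups, 0.68 on the log2 scale, exceeded that of 99.7% of probe sets.

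As a yardstick, mRNAs with known iron-responsive elements were ranked by the same mean change. Ormdl1 stood at rank 23 of 45037. The probe sets of Tfrc, which encodes transferrin receptor 1, stood at ranks 4 (change 2.88), 16 (2.19) and 22 (1.98). Those of Slc40a1, the iron exporter ferroportin, stood at ranks 5 (2.83) and 51 (1.36). In measured size the Ormdl1 change (1.93, SE 0.25) thus lay below all 3 of Tfrc and between the 2 of Slc40a1. The lowest Tfrc change, 1.98 (SE 0.08), lay within the Ormdl1 SE, so the order of these probe sets is not established. The ranks are a description of measured sizes, since different probe sets do not share a scale.

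Among 9569 genes whose signal varied over the arrays (SD of at least 0.5), the 5 whose pattern over the 20 arrays was most like that of Ormdl1 all had both IRP1 arrays above both controls in all 5 tissues. They were Shc1, a signalling adaptor (Pearson r = 0.89), Tfrc (0.88), Cep95, a centrosomal protein (0.87), Mpv17l2, a protein of the inner mitochondrial membrane (0.84), and Apba3, an adaptor protein (0.84). Their mean changes with IRP1 were 2.16, 2.19, 3.13, 1.22 and 2.02 in that order. These points share their tissues, pull-downs and arrays, so r describes likeness only. The 5 genes were picked for their likeness to a gene chosen for its enrichment. Their own separation by IRP1 follows in large part from that choice, and nothing is read from it. The other probe sets of the enzyme and its regulators had r between -0.11 and 0.42 with Ormdl1.

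Changes were small in the sister genes and the enzyme subunits. The 10 probe sets other than Ormdl1 had mean changes over the tissues between -0.04 and 0.12 (median 0.02), against a median of -0.01 over all probe sets. Of all 11, Ormdl1 was the only one whose mean change passed an adjusted p of 0.05, a bar that 0.773% of all probe sets passed as higher and 1.03% as lower, and nothing is read from it because the genes were chosen on this contrast. In single tissues 0 of the 11 passed in limma, Ormdl1 included, where 0.104% of all probe sets passed in duodenum, 0.184% in liver, 0.102% in spleen, 0.131% in bone marrow and 0.124% in brain, in either direction. Among the 50 comparisons of these 10 probe sets in a tissue, the IRP1 arrays lay above both controls in 10, below both in 4, and overlapped them in 36. Over all probe sets 17.8% of such comparisons lay above and 19.7% below.

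**Figure D2:**
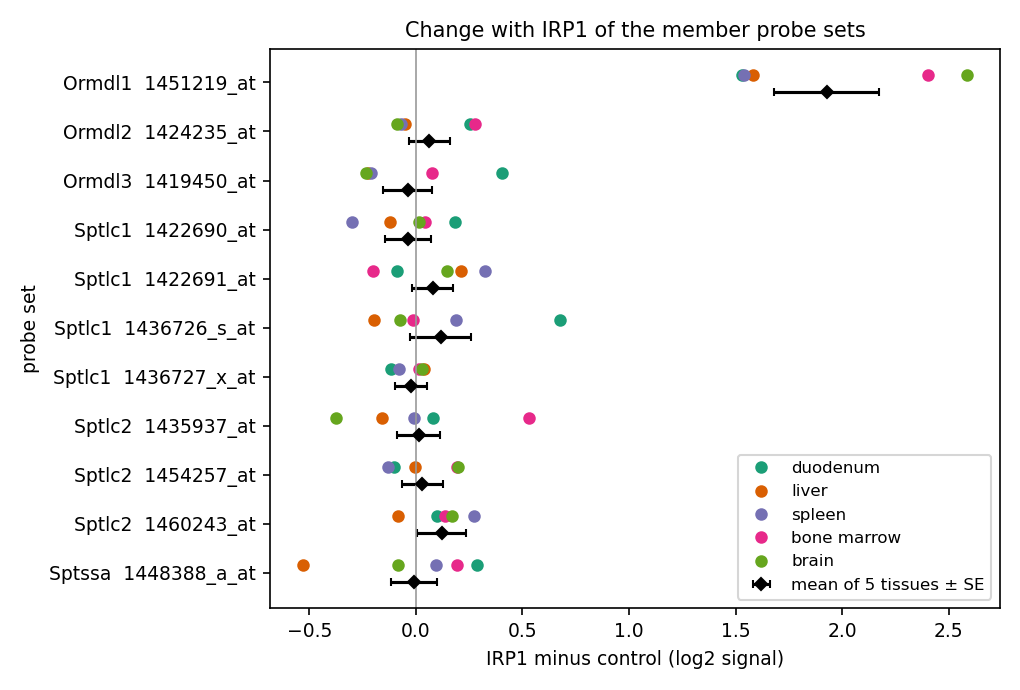
IRP1 minus control in log2 signal (horizontal axis) for the 11 probe sets (vertical axis); coloured points are the tissues and black diamonds the mean of the 5 tissues with its SE. Ormdl1 stands at 1.53 to 2.58 in the tissues, and the other 10 probe sets lie between -0.53 and 0.68.

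Ormdl2, a sister of Ormdl1 that also restrains serine palmitoyltransferase, changed by 0.06 in the mean of the tissues (SE 0.10). Its probe set, 1424235_at, is also annotated to the pseudogene Gm5553, and Ormdl2 overlaps Dnajc14 in the genome, so its signal may hold more than 1 RNA. In duodenum it gave 9.66 and 9.62 with IRP1, against 9.27 and 9.51 in the controls. In bone marrow it gave 8.93 and 8.88 with IRP1, against 8.62 and 8.65 in the controls. These were the tissues in which both IRP1 arrays lay above both controls, by 0.28 at most in the means. The groups overlapped in liver (9.12 and 9.25 with IRP1, 9.49 and 8.99 in the controls), spleen (8.51 and 8.93 with IRP1, 8.62 and 8.96 in the controls) and brain (6.89 and 6.85 with IRP1, 7.27 and 6.65 in the controls).

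Ormdl3, the other sister of Ormdl1, whose human gene lies in a region linked to childhood asthma, changed by -0.04 (SE 0.12). Its probe set, 1419450_at, is also annotated to the pseudogene Gm12538. Duodenum had 7.98 and 8.08 with IRP1, against 7.80 and 7.45 in the controls, and was the tissue without overlap, with a difference of 0.40. The groups overlapped in liver (8.09 and 8.18 with IRP1, 8.08 and 8.65 in the controls), spleen (6.83 and 7.37 with IRP1, 7.24 and 7.38 in the controls), bone marrow (7.36 and 8.03 with IRP1, 7.61 and 7.63 in the controls) and brain (6.72 and 7.09 with IRP1, 6.86 and 7.41 in the controls). Adjusted p-values for a difference between tissues in the change were 0.954 for Ormdl2 and 0.935 for Ormdl3.

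Sptlc1, the core partner of Sptlc2 in the enzyme, had mean changes between -0.04 and 0.12 over its 4 probe sets. Probe set 1422690_at changed by -0.04 (SE 0.11), with 9.78 and 9.79 in duodenum IRP1 reactions, against 9.61 and 9.59 in duodenum controls. That was the tissue without overlap, and its difference was 0.19. Probe set 1436726_s_at, whose suffix marks probes shared by several transcripts, gave the largest single value outside Ormdl1, 0.68 in duodenum (SE 0.32). Its duodenum arrays read 10.52 and 11.03 with IRP1, against 9.35 and 10.85 in the controls, so the groups overlapped, with 1 control array low. Probe set 1422691_at changed by 0.08 (SE 0.09), and the dim 1436727_x_at, which read between 4.03 and 4.65 on all arrays, changed by -0.02 (SE 0.08).

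Sptlc2, the catalytic subunit, changed by 0.01 (SE 0.10) in probe set 1435937_at, 0.03 (SE 0.10) in 1454257_at and 0.12 (SE 0.11) in 1460243_at. The first of these had mean differences of opposite sign in bone marrow (0.53, SE 0.23) and brain (-0.37, SE 0.23), neither of them called. In bone marrow it gave 7.31 and 7.63 with IRP1, against 6.71 and 7.18 in the controls, and in brain 6.48 and 6.39 with IRP1, against 6.68 and 6.94 in the controls. Neither pair of groups overlapped, yet the difference between tissues gave an adjusted p of 0.930. For Sptlc2 probe set 1460243_at the corresponding brain values were 7.80 and 7.85 with IRP1, against 7.55 and 7.76 in the controls. That difference was 0.17 (SE 0.25), opposite in sign to the first probe set but smaller than its SE. It was not called either, so a disagreement between the probe sets in brain is not shown.

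Sptssa, the activating small subunit, changed by -0.01 (SE 0.11) in probe set 1448388_a_at. In liver it gave 10.45 and 10.86 with IRP1, against 11.29 and 11.08 in the controls, a difference of -0.53 (SE 0.24) that was the lowest of any tissue and probe set described here. In duodenum it gave 12.90 and 12.86 with IRP1, against 12.48 and 12.72 in the controls, a difference of 0.29. Both tissues separated without overlap in opposite directions, and the test of a difference between tissues gave an adjusted p of 0.930. The groups overlapped in spleen (11.02 and 11.56 with IRP1, 10.90 and 11.49 in the controls), bone marrow (11.69 and 12.17 with IRP1, 11.53 and 11.94 in the controls) and brain (10.09 and 10.12 with IRP1, 10.07 and 10.31 in the controls).

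The control reactions, which hold RNA brought down without recombinant IRP1, gave each gene a level by tissue. In 8 of the 11 probe sets these levels differed between tissues (limma's moderated F test on the control groups, adjusted p under 0.05), where 63.1% of all probe sets did. The 8 were those of Ormdl1, Ormdl2, Ormdl3 and Sptssa, all 3 of Sptlc2 and 1 of Sptlc1. Single pairs of tissues were compared in the same fit. Of all probe sets, duodenum differed from liver in 27.5%, from spleen in 32.3%, from bone marrow in 29.6% and from brain in 39.6%. Liver differed from spleen in 38.4%, from bone marrow in 32.5% and from brain in 40.5%, spleen from bone marrow in 18.4% and from brain in 38.2%, and bone marrow from brain in 41.0%. In whole tissue, fewer cells that hold an RNA and less of it per cell cannot be told apart. The levels are also those of RNA recovered in the control reactions. Input RNA was not on the arrays, so how far the levels follow it was not tested.

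Ormdl1 was lowest in brain. Its mean control level was 9.40 in spleen, 9.19 in bone marrow, 9.02 in duodenum, 8.82 in liver and 7.28 in brain. Neighbours in this order were not called as different except liver over brain, at 1.54 (SE 0.55, limma adjusted p = 0.0340). Spleen exceeded brain by 2.12 (adjusted p = 0.00499), bone marrow by 1.91 (0.00995) and duodenum by 1.74 (0.0178). The overall test gave an adjusted p of 0.0186, but the call was lost without brain control replicate 1 (0.0566) or replicate 2 (0.180), and with all values under 5 raised to 5 (0.105). That floor changed no Ormdl1 value, as the lowest Ormdl1 array read 7.03. Levels in the IRP1 arrays, which follow the enrichment too, gave an adjusted p of 0.0927, where 63.9% of all probe sets were called.

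Ormdl2 was lowest in brain as well. Its control mean was 9.39 in duodenum, 9.24 in liver, 8.79 in spleen, 8.63 in bone marrow and 6.96 in brain. Bone marrow exceeded brain by 1.67 (SE 0.22, limma adjusted p = 6.24e-06), the other neighbours were not called, and duodenum exceeded brain by 2.43, or 5.38-fold (adjusted p = 6.28e-08). Ormdl3 was instead highest in liver. Its control mean was 8.36 in liver, 7.63 in duodenum, 7.62 in bone marrow, 7.31 in spleen and 7.14 in brain, and liver exceeded duodenum by 0.74 (SE 0.26, adjusted p = 0.0435), while the other neighbours were not called. The overall Ormdl3 test (adjusted p = 0.00506) was lost without liver control replicate 2 (0.0822).

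**Figure D3:**
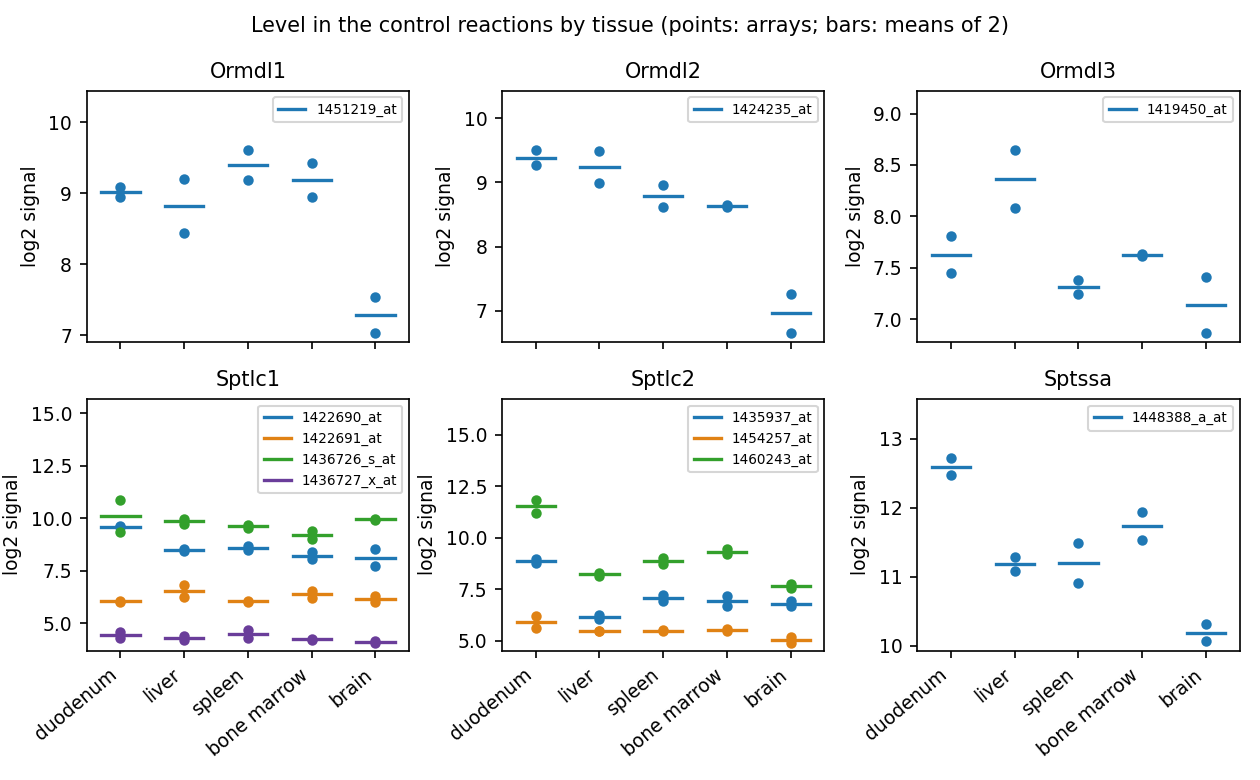
Log2 signal in the control reactions (vertical axes) by tissue (horizontal axes), 1 panel per gene and 1 colour per probe set; points are arrays and bars means of 2. Ormdl1 and Ormdl2 are lowest in brain, Ormdl3 is highest in liver, and Sptlc2 1460243_at and Sptssa are highest in duodenum; levels of different probe sets are not on 1 scale.

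Among the enzyme subunits, Sptssa, both brighter probe sets of Sptlc2 and the called probe set of Sptlc1 were highest in duodenum. Sptlc2 in probe set 1460243_at read 11.82 and 11.23 in duodenum controls, against 9.21 and 9.45 in bone marrow, 9.01 and 8.71 in spleen, 8.28 and 8.16 in liver and 7.55 and 7.76 in brain. Duodenum exceeded bone marrow, the next tissue, by 2.19 (SE 0.25, 4.57-fold, limma adjusted p = 2.72e-06), liver by 3.30 (9.85-fold) and brain by 3.87 (14.6-fold, adjusted p = 1.23e-09). The other neighbours were not called, although spleen exceeded liver by 0.64 (SE 0.25, adjusted p = 0.0573) and liver exceeded brain by 0.57 (SE 0.25, adjusted p = 0.0865). Sptlc2 in probe set 1435937_at read 8.98 and 8.80 in duodenum controls, against 7.22 and 6.93 in spleen, 6.71 and 7.18 in bone marrow, 6.68 and 6.94 in brain and 6.27 and 6.06 in liver. Duodenum exceeded spleen there by 1.81 (3.51-fold, adjusted p = 6.96e-06), and brain exceeded liver by 0.64 (adjusted p = 0.0312). The dim Sptlc2 probe set 1454257_at was called at an adjusted p of 0.0273, and the call was lost without duodenum control replicate 1 (0.127) or brain control replicate 2 (0.154), with a floor at 5 (0.0704) and in the IRP1 arrays (0.112).

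Sptssa read 12.48 and 12.72 in duodenum controls, against 11.53 and 11.94 in bone marrow, 10.90 and 11.49 in spleen, 11.29 and 11.08 in liver and 10.07 and 10.31 in brain. Duodenum exceeded bone marrow by 0.86 (SE 0.24, 1.82-fold, limma adjusted p = 0.0109), and liver exceeded brain by 1.00 (SE 0.24, adjusted p = 0.00309), whereas the neighbours between them were not called. Sptlc1 in probe set 1422690_at read 9.61 and 9.59 in duodenum controls, against 8.47 and 8.68 in spleen, 8.45 and 8.52 in liver, 8.04 and 8.38 in bone marrow and 7.71 and 8.52 in brain. Duodenum exceeded spleen by 1.02 (SE 0.24, 2.03-fold, adjusted p = 0.00298), and no other neighbours were called. The other 3 Sptlc1 probe sets were not called, at adjusted p-values of 0.130 (1436726_s_at), 0.170 (1422691_at) and 0.232 (1436727_x_at). The first of them was called without duodenum control replicate 1 (0.00021) or replicate 2 (0.0144), and the next without liver control replicate 1 (0.0449). Levels in the IRP1 arrays were called for both, at limma adjusted p-values of 0.00541 for 1436726_s_at and 0.0393 for 1422691_at. Their directions differed. There 1436726_s_at was highest in duodenum (mean 10.77), whereas 1422691_at was lowest in duodenum (mean 5.95). The controls did not set duodenum apart. For 1436726_s_at, duodenum exceeded brain by 0.16 (SE 0.32, limma adjusted p = 0.752). Its duodenum controls read 9.35 and 10.85, the lower of them below the control means of brain (9.94), liver (9.85) and spleen (9.61). For 1422691_at, duodenum lay below spleen by 0.0048 (limma adjusted p = 0.991). Pancreatic acinar markers were also highest in duodenum, at 13.97 in its controls. They stood at 9.81 in spleen, 6.03 in liver, 5.48 in bone marrow and 4.96 in brain controls. Their part in the duodenum levels was not tested.

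Beyond serine palmitoyltransferase and its regulators, 61 other sphingolipid genes were set out in 4 lists by role, of which 58 were measured by a probe set of their own. With each gene taken at its brightest probe set, 0 of 58 were called higher with IRP1 in the mean of the tissues and 2 were called lower, where 0.912% of all 18193 genes were called higher and 1.19% lower. At an unadjusted p under 0.05, 1 of the 58 was higher and 11 were lower, where 6.39% of all genes were higher and 11.9% lower at that threshold. The median change of the 58 was -0.08, against -0.01 over all genes.

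Both called genes belong to the list of ceramide transport and complex sphingolipid synthesis, which had 15 of 15 measured and a median of -0.08. St3gal5, the GM3 synthase that opens the ganglioside pathway, fell by 0.47 on the log2 scale (SE 0.09, 1.38-fold lower, limma adjusted p = 0.0148). Its change in the tissues ran between -0.79 and -0.15, and both IRP1 arrays lay below both controls in 3 of 5 tissues. B4galnt1, the GM2/GD2 synthase that acts later in that pathway, fell by 0.33 (SE 0.07, 1.25-fold lower, adjusted p = 0.0264), with tissue changes between -0.59 and 0.14. The other probe set of each gene was not called. That of St3gal5 stood at -0.18 (SE 0.11, adjusted p = 0.466), and that of B4galnt1 at 0.18 (SE 0.09, adjusted p = 0.332), the opposite sign. The B4galnt1 call was lost under quantile normalisation (0.0901), without the 3 arrays of low hybridisation controls (0.0722) and without any 1 of 9 single arrays.

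In the list of first steps and ceramide synthesis, 0 of 12 measured genes were called in either direction, and the median was -0.07. At an unadjusted limma p under 0.05, 3 of them were lower, a threshold at which 6.39% of all genes were higher and 11.9% lower. The ceramide synthases Cers6 (-0.33, SE 0.10, limma adjusted p = 0.110) and Cers2 (-0.28, SE 0.11, adjusted p = 0.189) had the largest changes there. Of 20 breakdown genes 0 were called, with 1 higher and 5 lower at an unadjusted p under 0.05, and the median was -0.14. The sphingosine 1-phosphate lyase Sgpl1 (-0.45, SE 0.13, adjusted p = 0.0860) and the neutral sphingomyelinase Smpd2 (-0.36, SE 0.10, adjusted p = 0.0840) had the largest changes among them. The other Sgpl1 probe set stood at -0.09 (SE 0.10, limma adjusted p = 0.745). Of 11 genes for sphingosine 1-phosphate kinases, phosphatases, exporters and receptors 0 were called, with 0 at an unadjusted p under 0.05 and a median of 0.03. The kinase Sphk1 stood at 0.13 (SE 0.13, adjusted p = 0.697) and the phosphatase Sgpp1 at -0.12 (SE 0.11, adjusted p = 0.672).

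**Figure D4:**
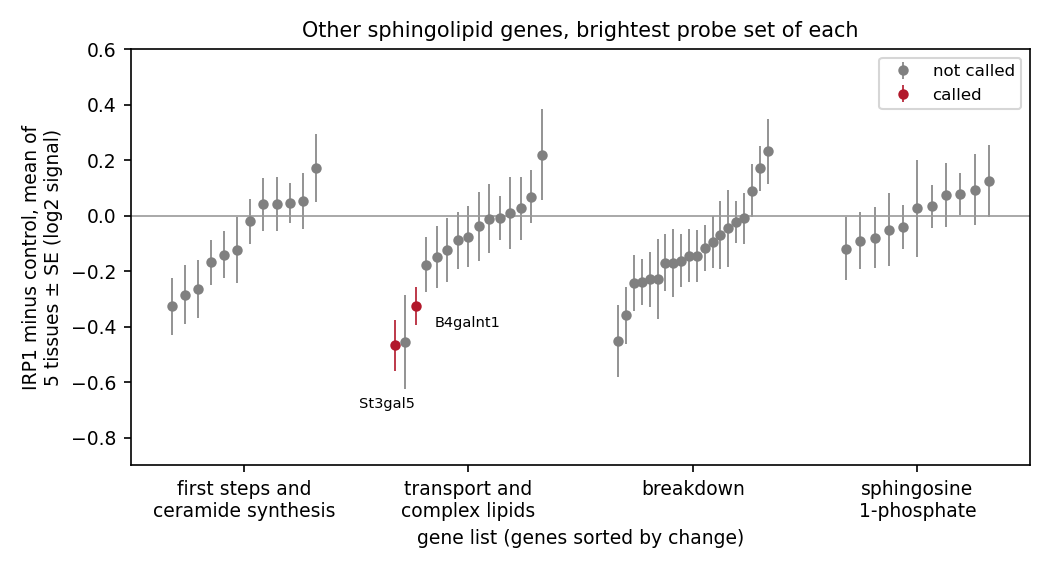
IRP1 minus control in log2 signal, mean of the 5 tissues with its SE (vertical axis), for 58 other sphingolipid genes sorted by change within 4 lists (horizontal axis), each at its brightest probe set. Called genes are red: St3gal5 at -0.47 and B4galnt1 at -0.33; all values lie between -0.47 and 0.23.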

How the data were processed

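The authors deposited log2 signal values of 20 Affymetrix mouse genome arrays. Per the labels' design text, intensities came from RMA or from MAS5 (GCOS) followed by quantile normalization; which of these made the deposited log2 values, and whether the 20 arrays went through it as 1 set, is not given in the sources used here. The values were used as deposited and 0 columns were set aside. After 64 Affymetrix controls were left out, 45037 probe sets remained; the platform annotation gives 34945 of them 1 symbol (18193 genes), 932 several and 9160 none. limma 3.58.1 in R 4.3.3 fitted 10 group means to all 20 arrays (10 residual degrees of freedom), with Benjamini-Hochberg adjustment over all probe sets and calls under 0.05, and no filter on low values. The procedure was tested on simulated data. The number of arrays limits the precision.

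The genes described and the 4 sphingolipid lists were chosen with earlier results of these data known. Every probe set of the 6 genes is named; from each list, the genes called in the mean of the tissues or, where none was, the 2 with the largest absolute change; and the 5 genes most correlated with Ormdl1. Alternatives were other scalings, a floor at 5, array weights, any probe set of a gene, a replicate block, and leaving out arrays.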

Additional observations from a re-analysis of the deposited data

How the results depend on the processing

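The Ormdl1 mean change of 1.93 stayed between 1.72 and 2.03 under 5 other settings and between 1.72 and 2.13 on leaving out each array. Calls for a difference between tissues in the change numbered 0 of 11 throughout. Calls for a control level that differed between tissues, 8 of 11, ran between 6 and 8 under 5 other settings, the last of which, chosen after seeing the data, took the IRP1 arrays and gave 8 (without Ormdl1 and Sptlc2 1454257_at, with Sptlc1 1422691_at and 1436726_s_at), and between 6 and 9 on leaving out each array. Other sphingolipid genes called higher numbered 0 in all 7 other settings and on leaving out each of the 20 arrays. Those called lower, 2 as reported, numbered 1 under quantile normalization and 1 without the 3 arrays of low hybridization controls (St3gal5 in both), and between 1 and 4 on leaving out each array (4 without brain IRP1 replicate 2, which added Smpd2 and Sgpl1). St3gal5 was called in every one of these fits, at adjusted p-values between 0.00896 and 0.0454 in limma. With a replicate block, 4 were called lower (St3gal5, Cers6, Smpd2 and Sgpl1) and B4galnt1 was not (adjusted p = 0.0528); same-numbered arrays deviated together in spleen (correlation 0.53), duodenum (0.27) and brain (0.12) but not in bone marrow (-0.04) or liver (-0.07), so the numbers were not taken to pair the samples. The causes were not tested.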

Other observations

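The IRP1 replicates of Ormdl1 lay far apart in 2 tissues. Replicate 2 exceeded replicate 1 by log2 2.04 in spleen and 1.81 in brain, larger gaps than in 99.9% of probe sets in either tissue, where the median absolute gap was 0.227 in spleen and 0.205 in brain. In spleen the same gap was 2.31 for Shc1, 2.13 for Cep95 and 1.50 for Apba3. It was 1.03 and 0.84 for the probe sets of Slc40a1 there, 0.76, 0.29 and 0.19 for those of Tfrc, and 0.64 for Mpv17l2. In brain it was 1.49 for Apba3, 0.60 for Cep95, 0.10 for Mpv17l2 and -0.15 for Shc1. The brain gap was 0.70 and 0.57 for the probe sets of Slc40a1 and 0.91, 0.62 and 0.13 for those of Tfrc. All gaps given for spleen were positive, and all given for brain except that of Shc1. Shc1, Cep95, Mpv17l2, Apba3 and Tfrc were picked for their likeness to Ormdl1 over arrays that include these replicates. Gaps of the same sign in those genes are therefore built in part into the choice, and nothing is read from them. Whether these genes share a gap was not tested. Spleen IRP1 replicate 2 is also among the 3 arrays with low hybridization controls, at -1.06, and the part of that in these gaps was not tested. The probe sets of Ormdl2, Ormdl3, Sptlc1, Sptlc2 and Sptssa on the same arrays are given above.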
